A study of Mus musculus with 8 samples.

Results

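The genes described here encode RNA methyltransferases, pseudouridine synthases and the proteins that read or remove the m6A mark, measured in leukaemic spleen cells with high and with low surface c-kit. They were chosen by symbol: genes of the Mettl, Nsun, Trmt, Pus, Ythdc and Ythdf families with a number in the name, plus Wtap, Alkbh5 and Fto, leaving out Mettl7 genes. Of 18193 named genes on the array, 58 met this rule, with 118 probe sets. Where a gene had several, the one with the highest mean over all 8 arrays stood for it. No expression difference entered the rule, but the genes were chosen with earlier results of these data known. Not every gene chosen by name modifies RNA, since several Mettl proteins methylate other proteins, and Mettl4-ps1 is a pseudogene.

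The cells came from spleens of 4 mice with MLL-AF10 acute myeloid leukaemia, in which a fusion of the histone methyltransferase gene MLL with AF10 drives the disease. Per the labels, c-kit+ stem and progenitor cells of bone marrow were retrovirally transduced, immortalised and transplanted into syngeneic recipients (written CD57BL/6) after sub-lethal irradiation, and all arrays share this origin. Each spleen was sorted on c-kit (CD117) into a high fraction, CD117pos, and a low or negative fraction, CD117neg, and polyA RNA of each was amplified in 2 cycles and hybridised to 1 Affymetrix array. The mice are called _948, _951, _952 and _953 after the array titles, so replicates are separate animals. Whether their leukaemias came from separate transductions, which host cells the fractions still held and the age of the mice are points that the labels do not give.

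After transcription many RNAs are altered chemically: methyl groups are placed on bases of messenger, transfer and ribosomal RNA, and uridine is turned into pseudouridine by rearranging its bond to the sugar. N6-methyladenosine (m6A) in messenger RNA is written by a complex of Mettl3, Mettl14 and Wtap, removed by Fto and Alkbh5 and bound by YTH-domain proteins, and it influences splicing, translation and decay of transcripts. Modified bases in transfer and ribosomal RNA stabilise these molecules and tune translation, both in the cytosol and in mitochondria, and several m6A regulators are known to support the growth of acute myeloid leukaemia cells.

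Values are intensities on a linear scale, and every difference is CD117pos minus CD117neg of log2(intensity + 16), which understates the change of dim genes. Differences carry the SE of a limma fit over all 18193 genes with the mouse as a block, in which "higher" or "lower" means a Benjamini-Hochberg adjusted p under 0.05. Means are given ± SD over the 4 mice. Kit, the gene of the sorted receptor, checked the labels: it went from 28.6 ± 9.73 in CD117neg to 751 ± 127 in CD117pos arrays. Array medians lay between 27.5 and 32.8. Log2 intensities of the CD117pos array of mouse _951 correlated across genes at 0.929 to 0.931 with the other CD117pos arrays, while those correlated with each other at up to 0.989. In bulk samples such as these, fewer cells of a type and less RNA per cell cannot be told apart.

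More of these genes, chosen with earlier results of these data known, were higher in the c-kit-high fraction than lower. Of the 58 genes, 20 (34.5%) were higher in CD117pos, against 8.36% of all genes tested. Only 3 genes (5.17%) were lower, against 13.8% of all genes tested. The median log2 difference was 0.30, against -0.01 over all genes. It was 0.34, 0.29, 0.34 and 0.24 in mice _948, _951, _952 and _953, where the median over all genes lay between -0.05 and -0.00. The folds of the 20 higher genes ran from 1.37 to 2.46, and 6 of them reached a fold of 2. Every CD117pos array lay above every CD117neg array for 19 genes (32.8%), against 10.4% of all genes, and below for 2 genes (3.45%), against 17.2%.

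These calls depended on the scaling of the arrays and on single mice. Higher genes made up 37.7% of all calls on the array as deposited. Their share was 54.1% with quantile normalisation and 47.8% with array medians set equal. Quantile normalisation gave 28 higher and 0 lower genes among the 58, where 2 had a negative difference at an unadjusted p under 0.05 in limma. Centring gave 23 and 1. Over all genes the counts were 2341 higher and 1984 lower with quantile normalisation, and 1895 and 2073 with centring. All of the 20 higher genes were higher under both scalings, so the calls that the scaling removed were among the 3 lower ones. Without mouse _948, 3 of the 58 genes were higher and 0 lower. Without mouse _951 the counts were 22 and 3, without mouse _952 they were 5 and 0, and without mouse _953 they were 3 and 0. In limma at an unadjusted p under 0.05, 3, 4 and 3 genes were lower without mice _948, _952 and _953. Over all genes the higher calls numbered 450, 2130, 611 and 440 in these 4 fits. The calls of Mettl1 and Mettl15 held without any 1 mouse, and that of Mettl16 ended only without mouse _953 (limma, adjusted p = 0.0513). With a pseudocount of 1, which gives dim values more weight, 11 of the 58 genes and 997 of all genes were higher. The calls of Mettl14, Nsun2, Nsun5, Mettl2, Trmt6, Trmt10c, Trmt2b, Pus3 and Mettl18 and of the 3 lower genes ended there (limma, adjusted p between 0.056 and 0.092). A fit that left out only the CD117pos array of mouse _951, and with it the block, gave 24 higher and 3 lower genes. Over all genes that fit gave 2167 higher and 2955 lower, against 1521 and 2518 in the main fit.

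**Figure D1:**
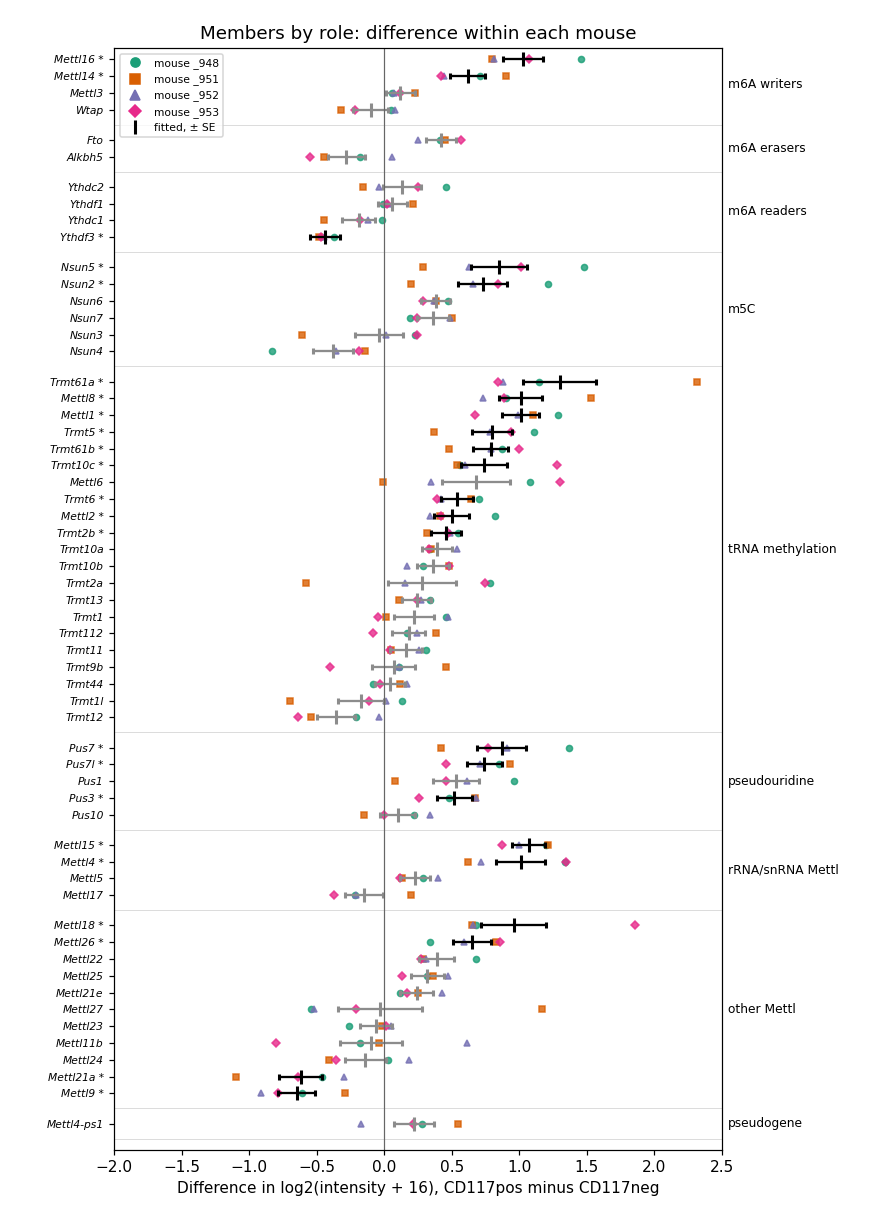
Log2 differences (CD117pos minus CD117neg, horizontal axis) of the 58 genes, grouped by role on the vertical axis. Coloured points are the 4 mice, bars are the fitted difference ± SE (black with an asterisk where the adjusted p is under 0.05, grey otherwise); most groups lie to the right of 0, and Ythdf3, Mettl9 and Mettl21a are the lower genes.

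The m6A writers did not move as 1 group: Mettl14 and Mettl16 were higher in CD117pos, while Mettl3 and Wtap did not pass the test. Mettl14, the RNA-binding partner of the catalytic subunit Mettl3, had intensities of 598, 462, 672 and 719 in the CD117neg arrays of mice _948, _951, _952 and _953. In the CD117pos arrays of the same mice it read 988, 878, 921 and 965. The fractions did not overlap, and the spread among CD117pos arrays was small (938 ± 48.9, n = 4). Its difference was 0.62 ± 0.13 (limma, adjusted p = 0.0249). That call ended without mouse _948, _952 or _953, where the adjusted p was 0.116, 0.077 and 0.0706, and with a pseudocount of 1 (0.0605).

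Mettl16 is a separate enzyme that places m6A on a small nuclear RNA of the spliceosome and on the messenger of the S-adenosylmethionine synthetase gene Mat2a. It read 175, 288, 286 and 247 in CD117neg arrays (mice in the order above) and 510, 511, 512 and 537 in CD117pos arrays. All CD117pos values were above all CD117neg values and close to each other. The difference was 1.03 ± 0.15, a fold of 2.05 (limma, adjusted p = 0.00801). Its second probe set was dim in both fractions, 11.99 ± 5.97 and 10.7 ± 3.81, with a difference of -0.05 ± 0.18 that did not pass.

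Mettl3 itself read 520, 515, 639 and 543 in CD117neg and 543, 607, 670 and 590 in CD117pos arrays. The fractions overlapped, although the difference had the same sign in all 4 mice. It came to 0.12, with a 95% confidence interval of -0.15 to 0.38 (limma, adjusted p = 0.506). Wtap, the adaptor that keeps the complex in nuclear speckles, read 3893 ± 615 in CD117neg and 3598 ± 225 in CD117pos arrays. Its difference was -0.10, with an interval of -0.41 to 0.21, and it became 0.07 after quantile normalisation. Of the 4 writers, 1 was higher without mouse _948 or _952, 2 without mouse _951, and neither Mettl14 nor Mettl16 without mouse _953.

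Neither demethylase passed the test. Fto read 489, 660, 606 and 519 in CD117neg and 655, 907, 722 and 781 in CD117pos arrays. It was brighter in the CD117pos array of each mouse, but the fractions overlapped by a few units. The difference of 0.42 ± 0.11 lay just outside the threshold as deposited (limma, adjusted p = 0.0512) and inside it after quantile normalisation (0.015) and centring (0.0342). Alkbh5 went from 1461 ± 260 to 1191 ± 112, a difference of -0.28 with an interval of -0.64 to 0.08, and it moved up in mouse _952 alone (0.06). At an unadjusted p under 0.05, limma gave 1 of the 2 erasers above 0, and 2599 of all 18193 genes.

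Among the readers, Ythdf3, a cytoplasmic protein that acts on translation and decay of m6A messengers, was lower in CD117pos. Its chosen probe set read 1310, 1698, 1634 and 1642 in CD117neg and 1010, 1217, 1190 and 1184 in CD117pos arrays. The fractions did not overlap, and the differences within mice were alike, from -0.48 to -0.37. The fitted difference was -0.44 ± 0.11 (limma, adjusted p = 0.0338). The other 2 probe sets of Ythdf3 differed more, by -1.14 ± 0.24 and -1.13 ± 0.16 (limma over all probe sets, adjusted p = 0.0261 and 0.0078). On those probe sets the CD117pos array of mouse _951 was the lowest, at 285 and 259, where the remaining CD117pos arrays read 540 to 715 and 382 to 463. The call on the chosen probe set ended without mouse _948, _952 or _953 (adjusted p between 0.119 and 0.13), and under centring and quantile normalisation.

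Ythdf1, a related cytoplasmic reader, read 2649 ± 211 and 2772 ± 228, a difference of 0.06 (interval -0.21 to 0.34). The nuclear reader Ythdc1 differed by -0.19 (interval -0.50 to 0.11) and the helicase reader Ythdc2 by 0.13 (interval -0.23 to 0.49). None of these 3 passed the test, and limma placed none of them past an unadjusted p of 0.05. Ythdc1 came to 0.01 after quantile normalisation. Ythdf2 was not analysed here.

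**Figure D2:**
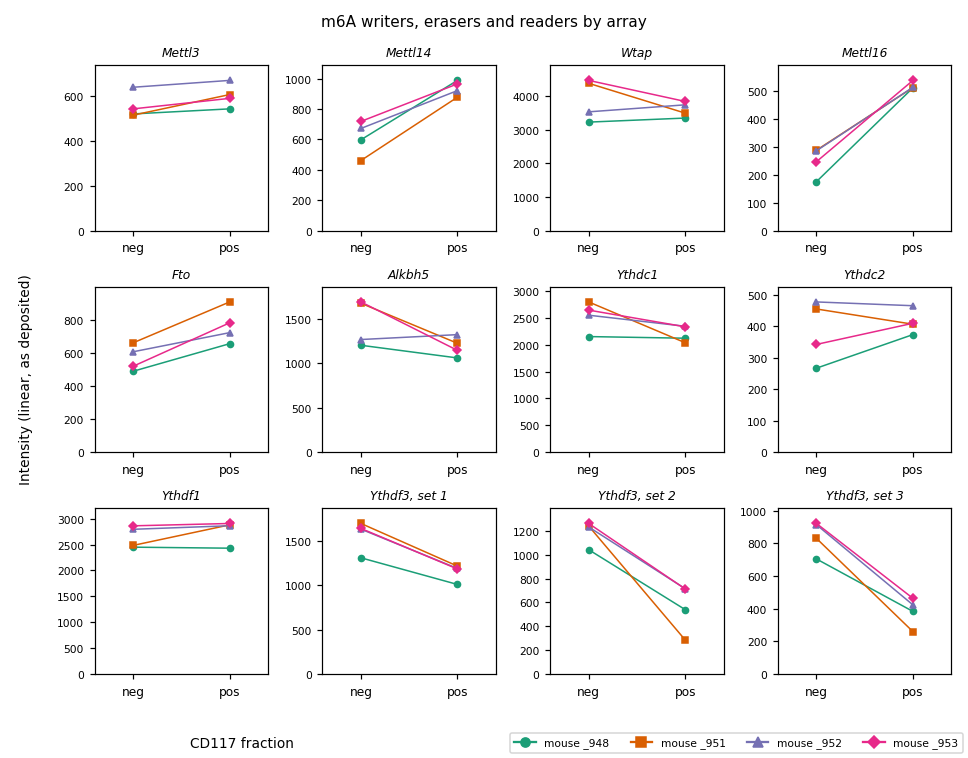
Intensities (linear axis from 0) of m6A writers, erasers and readers on each of the 8 arrays, with lines joining the 2 fractions of a mouse. Mettl14 and Mettl16 lie higher in every CD117pos array, Mettl3 overlaps, and all 3 probe sets of Ythdf3 lie lower in CD117pos.

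Of the 6 measured Nsun genes, whose enzymes place 5-methylcytosine on RNA, 2 were higher and 0 lower, with a median difference of 0.37. Over all genes tested, 8.36% were higher and 13.8% lower. At an unadjusted p under 0.05 limma gave 4 above and 1 below 0, where it gave 2599 above and 3709 below 0 of all 18193 genes. Nsun2, which methylates many transfer RNAs and some messengers, read 764, 1014, 855 and 873 in CD117neg and 1783, 1170, 1363 and 1577 in CD117pos arrays. The fractions did not overlap, yet mouse _951 showed the smallest step, 0.20 against 0.66 to 1.21 in the other mice. The fitted difference was 0.73 ± 0.18 (limma, adjusted p = 0.0398). Nsun5, which modifies RNA of the large ribosomal subunit, went from 49.9 ± 14.6 to 103 ± 26.7, with a difference of 0.85 ± 0.21 (limma, adjusted p = 0.0386). Its fractions overlapped through the CD117pos array of mouse _951, which read 63.5 against 113 to 121 in the other 3.

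The other Nsun genes did not pass. Nsun6, another transfer RNA enzyme, differed by 0.38 ± 0.11, and Nsun7, which was dim, by 0.36 ± 0.12. Nsun4, which acts on mitochondrial ribosomal RNA, differed by -0.38 ± 0.15, while another of its probe sets was lower by -0.62 (limma over all probe sets, adjusted p = 0.0456). That probe set was dim, at 38.3 ± 7.14 and 19.5 ± 5.45. A further, brighter Nsun4 probe set, at 98.3 ± 17.8 and 95.3 ± 20.7, differed by -0.05 ± 0.17 and did not pass. Nsun3, which modifies the mitochondrial transfer RNA for methionine, differed by -0.04, between 0.01 and 0.24 in mice _948, _952 and _953 and by -0.61 in mouse _951. Without that mouse it came to 0.16. The calls of Nsun2 and Nsun5 ended without mouse _948, _952 or _953 (limma, adjusted p between 0.106 and 0.151) and with a pseudocount of 1.

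The transfer RNA methyltransferases held 9 of the 20 higher genes. Of 21 measured, 9 were higher and 0 lower, against 8.36% and 13.8% of all genes tested. Their median was 0.39, and 19 had a difference above 0. At an unadjusted p under 0.05 limma gave 12 above and 1 below 0. Of all 18193 genes, 2599 were above and 3709 below 0 at that threshold. Without mouse _948 or _953, 1 of them was higher, without mouse _952 it was 2 and without mouse _951 it was 10. A pseudocount of 1 gave 5.

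Trmt61a and Trmt6 form the enzyme that places 1-methyladenosine on cytosolic transfer RNAs, with Trmt61a as its catalytic subunit, and both were higher. Trmt61a had the largest fold of the 58 genes. It read 302, 293, 373 and 482 in CD117neg and 692, 1521, 700 and 878 in CD117pos arrays, with no overlap. Mouse _951 stood apart, with a difference of 2.32 against 0.84 to 1.15 in the other mice. The fitted difference was 1.30 ± 0.27, a fold of 2.46 (limma, adjusted p = 0.0226). Without mouse _951 the adjusted p was 0.00474, and without any other mouse it lay between 0.0646 and 0.0891. Trmt6 read 1054 to 1338 in CD117neg and 1547 to 1833 in CD117pos arrays and differed by 0.54 ± 0.12 (limma, adjusted p = 0.0267).

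Mettl1, which with Wdr4 places 7-methylguanosine on transfer RNA, was higher without any 1 mouse, with a pseudocount of 1 and under both other scalings. It read 202, 220, 175 and 249 in CD117neg and 517, 489, 363 and 405 in CD117pos arrays. The lowest CD117pos array was above the highest CD117neg array. The difference was 1.01 ± 0.14 (limma, adjusted p = 0.0067), with adjusted p between 0.00872 and 0.0436 when 1 mouse was left out. Wdr4 went from 700 ± 182 to 1145 ± 197, a difference of 0.72 ± 0.14 (limma, adjusted p = 0.0188, but 0.0703 to 0.0867 without mouse _948, _952 or _953).

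Mettl2 and Mettl8 place 3-methylcytidine on transfer RNAs of the cytosol and of mitochondria, respectively. Mettl8 read 139 to 183 in CD117neg and 272 to 444 in CD117pos arrays, a difference of 1.01 ± 0.16 (limma, adjusted p = 0.0107). Mettl2 went from 304 ± 53.3 to 434 ± 53.1, a difference of 0.50 ± 0.13 (limma, adjusted p = 0.0454), with overlapping fractions. Mettl6, an enzyme of the same modification, went from 306 ± 73.4 to 496 ± 98.2 and did not pass over all mice. It differed by -0.01 in mouse _951 and by 0.35 to 1.30 in the others, and without mouse _951 its adjusted p was 0.0272.

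Mitochondrial transfer RNA enzymes were also among the higher genes. Trmt61b, which places 1-methyladenosine in mitochondria, went from 158 ± 28.6 to 291 ± 91.9, with a difference of 0.79 ± 0.13 (limma, adjusted p = 0.0113). Trmt10c, a subunit of mitochondrial RNase P as well as a methyltransferase, went from 119 ± 12.2 to 212 ± 42.1, with a difference of 0.74 ± 0.17 (limma, adjusted p = 0.0274). Trmt2b, which makes 5-methyluridine in mitochondrial RNA, had tight fractions of 408 ± 43.1 and 565 ± 44.2, with a difference of 0.46 ± 0.11 (limma, adjusted p = 0.0343). Trmt5, which methylates a guanosine next to the anticodon, went from 128 ± 19.2 to 236 ± 48.2, with a difference of 0.80 ± 0.15 (limma, adjusted p = 0.018). Fractions of Trmt61b overlapped through the CD117pos array of mouse _951, which read 185 against 196 in the highest CD117neg array. The calls of Trmt5, Trmt6, Trmt61b, Trmt10c, Trmt2b and Mettl2 ended without mouse _948, _952 or _953, and that of Mettl8 without mouse _948 or _953.

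Trmt112, an activating subunit shared by several methyltransferases, read 2521 ± 171 in CD117neg and 2881 ± 468 in CD117pos arrays and did not pass. The remaining genes of the group, among them Trmt1, Trmt10a, Trmt10b, Trmt11, Trmt13, Trmt1l, Trmt2a and Trmt44, did not pass either. Trmt12 and Trmt9b lay below the median of the array on all 8 arrays, so their differences carry little information.

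Promoter stretches of 3 higher genes and 1 lower gene are shown, to make the motif counts that follow readable in sequence. RefSeq promoters (GRCm38.p6, 250 bases before to 50 after the start) were found for 46 of the 58 genes, with 58 promoters in all, some of them overlapping. Both strands were searched for CACGTG, the E-box, which reads the same on both strands, for CCGGAAGT, an ETS motif, and for CGCATGCG, the core of the NRF1 motif. Printed are the 120 bases before the start on the strand of the gene, with motif matches in capitals; matches after the start were counted but are not printed. They come from Trmt61b (chr17:71598762-71598881, minus strand), Trmt10c (chr16:56037787-56037906, minus strand), Mettl4 (chr17:94750020-94750139, minus strand) and, as a lower gene, Mettl9 (chr7:121034325-121034444, plus strand).
Trmt61b: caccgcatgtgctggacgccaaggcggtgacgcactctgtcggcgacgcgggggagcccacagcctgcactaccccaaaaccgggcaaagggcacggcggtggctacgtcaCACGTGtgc
Trmt10c: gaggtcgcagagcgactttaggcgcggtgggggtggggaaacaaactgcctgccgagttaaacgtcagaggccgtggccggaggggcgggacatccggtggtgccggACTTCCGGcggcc
Mettl4: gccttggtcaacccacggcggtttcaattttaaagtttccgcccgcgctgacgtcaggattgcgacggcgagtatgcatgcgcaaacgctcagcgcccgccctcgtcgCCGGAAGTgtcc
Mettl9: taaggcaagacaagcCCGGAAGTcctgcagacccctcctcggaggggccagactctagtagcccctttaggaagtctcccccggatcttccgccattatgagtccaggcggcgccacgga
Trmt61b holds an E-box, Trmt10c the ETS motif on the opposite strand, and Mettl4 and Mettl9 the ETS motif on the strand of the gene.

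The E-box was present in 5 of 17 promoters (29.4%) of the higher genes, which stand for 15 genes. It was present in 4 of 39 promoters (10.3%) of genes that did not pass and in 0 of 2 of lower genes. In comparison, 8.74% of 18009 promoters of genes on the array and 7.15% of all 32851 RefSeq promoters held it. The higher genes with an E-box were Mettl1, Trmt61a, Trmt61b, Pus3 and Pus7. The ETS motif was in 4 of the 17 promoters of higher genes (23.5%), in 7 of 39 (17.9%) of genes that did not pass and in 1 of 2 of lower genes, against 5.86% of promoters of genes on the array and 3.89% of all. The NRF1 core was in 1 of 58 promoters of the members (1.72%), against 2.89% of promoters of genes on the array. These counts were not tested, and a match of letters is neither a binding site nor a cause.

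Of 4 Mettl genes that act on ribosomal or small nuclear RNA, Mettl15 and Mettl4 were higher. The higher share over all genes tested was 8.36%, and the median of the 4 was 0.62. Mettl15, which methylates RNA of the small mitochondrial ribosomal subunit, read 59.8, 82.5, 97.7 and 92.2 in CD117neg and 158, 212, 212 and 182 in CD117pos arrays. The fractions did not overlap, and the step was alike in all 4 mice, from 0.87 to 1.21. The fitted difference was 1.07 ± 0.12, a fold of 2.10, with the lowest adjusted p of the 58 genes (limma, 0.0037). Without 1 mouse the adjusted p lay between 0.00382 and 0.0323.

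Mettl4, which modifies a small nuclear RNA of the spliceosome and whose promoter stretch is printed above, read 60.9, 121, 130 and 111 in CD117neg and 178, 195, 224 and 308 in CD117pos arrays. Again no arrays overlapped. The difference was 1.01 ± 0.18 (limma, adjusted p = 0.0129), and it did not pass without mouse _948 (0.0694) or _953 (0.0669). Mettl5, which methylates RNA of the small cytosolic subunit, went from 711 ± 56.4 to 840 ± 62.8 and did not pass (0.23 ± 0.11). Mettl17, known from assembly of the mitochondrial ribosome, went from 340 ± 35.4 to 305 ± 27.3 and did not pass (-0.15 ± 0.14). At an unadjusted p under 0.05 limma gave none of the 4 below 0, and 3709 of all 18193 genes.

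All 5 Pus genes, which encode stand-alone pseudouridine synthases, had a difference above 0, with a median of 0.53, and 3 were higher. Of all genes tested, 8.36% were higher. Pus7, which acts on transfer RNA and messengers, read 61.1, 111, 73.3 and 93.7 in CD117neg and 184, 153, 151 and 171 in CD117pos arrays, without overlap. Its difference was 0.87 ± 0.18 (limma, adjusted p = 0.021). Its relative Pus7l read 465 to 714 in CD117neg and 849 to 1322 in CD117pos arrays, a difference of 0.74 ± 0.13 (limma, adjusted p = 0.0126). Pus3, a transfer RNA enzyme, went from 174 ± 54.5 to 260 ± 98.2, a difference of 0.52 ± 0.13 (limma, adjusted p = 0.0346). Its fractions overlapped because both arrays of mouse _951 were the brightest of their fraction, at 251 and 407, while the CD117pos arrays of the other mice read 209 to 214.

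Pus1, which modifies cytosolic and mitochondrial transfer RNA, went from 217 ± 17.97 to 331 ± 94.9 and did not pass over all mice (0.53 ± 0.17). It differed by 0.08 in mouse _951 and by 0.46 to 0.96 in the others, and without mouse _951 it passed (limma, adjusted p = 0.02). Pus10 read 238 ± 20.8 and 258 ± 32.3, a difference of 0.10 with an interval of -0.22 to 0.43. Without mouse _951, 4 of the Pus genes were higher. Without mouse _953 it was Pus7l alone (limma, adjusted p = 0.04), and the calls of Pus3, Pus7 and Pus7l ended without mouse _948 or _952 (0.063 to 0.143).

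Mettl genes known from protein methylation, or without a role in RNA that is well established, gave no common direction: of 11, 2 were higher and 2 lower, with a median of -0.03. The shares over all genes tested were 8.36% higher and 13.8% lower, and whether counts this small differ from them was not tested. Mettl9, a histidine methyltransferase of proteins, read 2132, 3336, 2455 and 2443 in CD117neg and 1394, 2723, 1303 and 1403 in CD117pos arrays. It was lower in the CD117pos array of each mouse, but the fractions overlapped through mouse _951, whose arrays were the brightest in both. The difference was -0.65 ± 0.14 (limma, adjusted p = 0.0262). A second Mettl9 probe set of similar brightness differed by -0.73 ± 0.22 and did not pass (limma over all probe sets, adjusted p = 0.0748). In mouse _951 that probe set was brighter in CD117pos, at 3118.5 against 2932.6. Mettl21a, which methylates lysine in chaperones, went from 347 ± 21.2 to 223 ± 45.5, a difference of -0.62 ± 0.16 (limma, adjusted p = 0.0443). Its other 2 probe sets, which were dimmer, differed by 0.36 ± 0.17 and 0.13 ± 0.16 and did not pass.

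Mettl18, a histidine methyltransferase of a ribosomal protein, went from 87.7 ± 25.1 to 186 ± 48.3, a difference of 0.96 ± 0.24 (limma, adjusted p = 0.0386). The step was 1.86 in mouse _953 and 0.65 to 0.68 in the others. Mettl26 went from 66.4 ± 13.5 to 114 ± 21.3, a difference of 0.65 ± 0.14 (limma, adjusted p = 0.0226). The calls of Mettl9, Mettl21a, Mettl18 and Mettl26 each ended without mouse _948, _952 or _953 (limma, adjusted p between 0.0521 and 0.151). After centring 2 were higher and 1 lower, and after quantile normalisation 4 and 0.

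**Figure D3:**
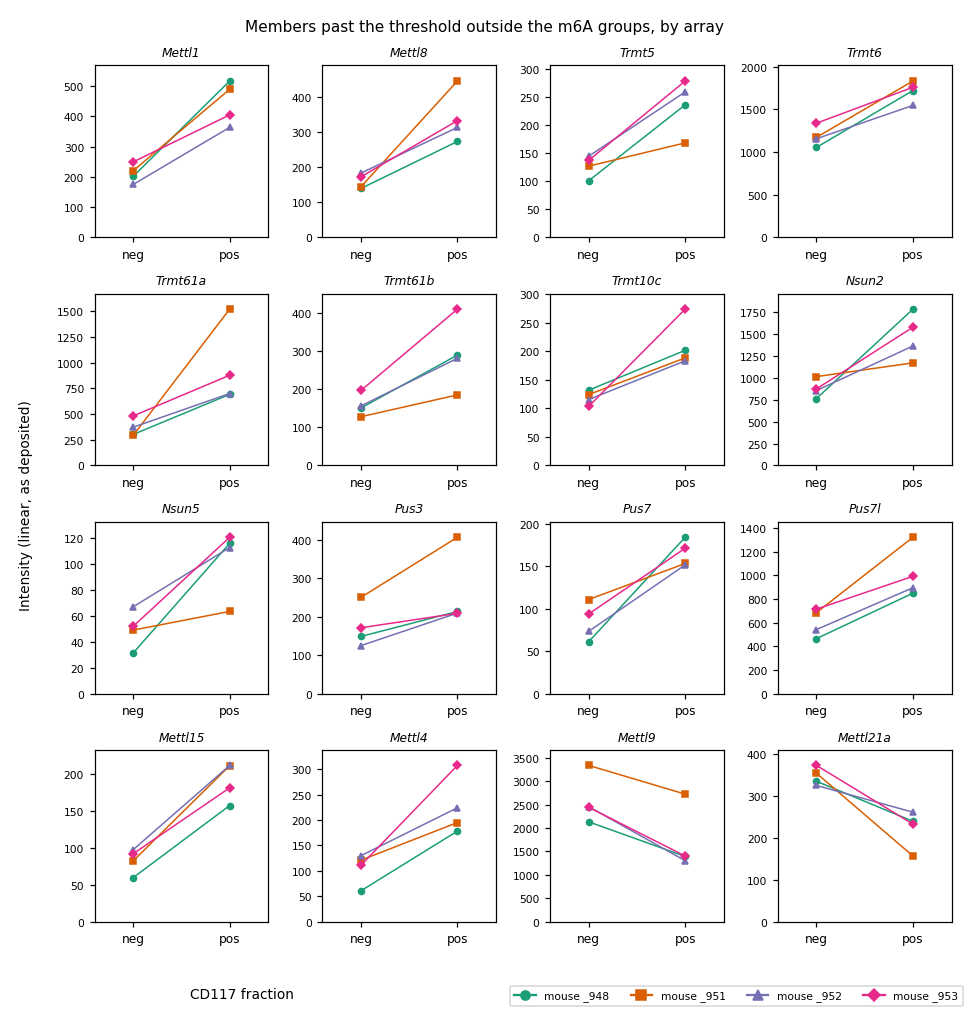
Intensities (linear axis from 0) of 16 of the 23 genes past the threshold, all outside the m6A groups, in the 4 CD117neg and 4 CD117pos arrays, by mouse. For Trmt61a, Trmt6, Mettl8, Pus3, Pus7l and Mettl9 the CD117pos array of mouse _951 is the brightest of its fraction. For Nsun2, Nsun5, Trmt5, Trmt61b and Mettl21a it is the dimmest.

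Several probe sets were available for 36 of the 58 genes. Of the 23 called genes, 15 had several, and in 13 of these all probe sets had the sign of the call, the others being Mettl16 and Mettl21a. This counts the sign only. The second probe sets of Trmt10c (6.19 ± 3.42 and 6.83 ± 5.17) and Trmt2b (1.81 ± 1.08 and 4.35 ± 1.59) were dim. They differed by 0.03 ± 0.15 and 0.19 ± 0.11 and did not pass. Of the probe sets not chosen, 15 passed in a fit over all probe sets, 12 above and 3 below 0. Those below were the 2 of Ythdf3 and the 1 of Nsun4 given above. Among the 12 above were probe sets of Mettl6 (1.03), Mettl22 (0.67) and Trmt10a (0.65 and 0.64), whose chosen probe sets did not pass. No gene, member or not, passed the threshold for differences among mice in the same limma fit. At an unadjusted p under 0.05, 4 members and 1403 of all genes (7.71%) did.

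Genes that work beside the members were taken from lists drawn up by function, and they too were more often higher than lower. For each of these lists the shares over all genes tested were 8.36% higher and 13.8% lower. Whether the smaller lists differ from these shares was not tested. Of 41 other transfer RNA modification enzymes, 18 were higher and 0 lower, with a median of 0.51. Elp3, the catalytic subunit of Elongator, read 378 to 530 in CD117neg and 1259 to 1700 in CD117pos arrays, a difference of 1.64 ± 0.15 (limma, adjusted p = 0.0023). Thumpd2, a methyltransferase with an RNA-binding THUMP domain, differed by 1.52 ± 0.18 and Qtrt2, a subunit of the enzyme that inserts queuosine, by 1.27 ± 0.15. The calls of these 3 genes held without any 1 mouse. Leaving out 1 mouse gave 6 to 19 higher genes of this list, the most without mouse _951, and a pseudocount of 1 gave 12.

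Of 13 ribosomal RNA methyltransferases and box C/D proteins outside the family names, 9 were higher and 0 lower, with a median of 0.64, and all 13 differences were above 0. Tfb1m, which dimethylates mitochondrial ribosomal RNA, went from 277 ± 25.9 to 581 ± 72.1, a difference of 1.02 ± 0.11 (limma, adjusted p = 0.00316). Its cytosolic relative Dimt1 differed by 0.99 ± 0.16 and Ftsj3, a nucleolar methyltransferase, by 1.05 ± 0.19. Over all mice Dimt1 and Ftsj3 passed as well (limma, adjusted p = 0.0101 and 0.0154). Among the fits without 1 mouse, Tfb1m was called in each, but Dimt1 and Ftsj3 only in the fit without mouse _951. Leaving out 1 mouse gave 12 higher genes of this list for mouse _951, 3 for mouse _948 and 2 for mouse _952 or _953.

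Of 10 other pseudouridine synthases and box H/ACA proteins, 4 were higher and 0 lower, with a median of 0.61. Trub1, a synthase of transfer RNA and messengers, read 29.2 to 48.4 in CD117neg and 124 to 197 in CD117pos arrays, a difference of 1.72 ± 0.20 (limma, adjusted p = 0.00389), and was called without any 1 mouse. Dkc1, the synthase of the H/ACA particle that is guided by small nucleolar RNA, differed by 0.76 ± 0.13, and Gar1, another protein of that particle, by 1.04 ± 0.22. Here 2 genes were higher without mouse _948, 4 without mouse _951 and 1 without mouse _952 or _953. The call of Dkc1 ended without mouse _948, _952 or _953 and that of Gar1 without mouse _952 or _953 and with a pseudocount of 1.

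Of 7 partners of the m6A writer complex and other m6A enzymes, 2 were higher and 1 lower, with a median of 0.51. Within mice _948, _951, _952 and _953 the median was 0.24, -0.13, 0.01 and 0.49, so the list did not move alike in all mice. Rbm15b, which helps to bring the complex to RNA, went from 67.9 ± 10.2 to 147 ± 47.2, a difference of 0.92 ± 0.20 (limma, adjusted p = 0.0257). Zcchc4, which places m6A on ribosomal RNA, differed by 0.66 ± 0.12, with both arrays of mouse _953 more than 3 times as bright as those of the other mice, at 508 and 858. Pcif1, which methylates the adenosine beside the cap, was lower, from 406 ± 31.5 to 247 ± 39.1, a difference of -0.69 ± 0.14 (limma, adjusted p = 0.0189). The scaffold Virma (-0.17 ± 0.21) and the ubiquitin ligase Cbll1 (0.07 ± 0.15) did not pass. Rbm15 (0.51 ± 0.23) and Zc3h13 (0.57 ± 0.69) did not pass either, and each had 1 array far from the others of its fraction. Rbm15 read 4389 in the CD117pos array of mouse _951 and 1597 to 1938 in the other CD117pos arrays. Zc3h13 read 26.7 in the CD117neg array of mouse _948 and 396 to 420 in the other CD117neg arrays. The calls of Rbm15b and Pcif1 ended without mouse _948, _952 or _953 (limma, adjusted p between 0.0507 and 0.114) and that of Zcchc4 without mouse _948 or _953 (0.0741 and 0.0704).

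Of 5 cap methyltransferases, 2 were higher and 0 lower. Cmtr2, which methylates the second cap-proximal nucleotide, differed by 0.99 ± 0.21 and Tgs1, which trimethylates caps of small RNAs, by 0.47 ± 0.12. The call of each ended without mouse _948, _952 or _953, and that of Tgs1 also with a pseudocount of 1. Cmtr1, which methylates the first cap-proximal nucleotide, went from 539 ± 119 to 298 ± 95.2 and did not pass over all mice (-0.85 ± 0.28; limma, adjusted p = 0.0835). Its difference was below 0 in all 4 mice, and without mouse _951 it was lower (limma, adjusted p = 0.0481).

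Other gene lists moved with the fraction as well, and their part in the differences of the RNA modification genes was not tested. Beside their counts stand the shares over all genes tested, 8.36% higher and 13.8% lower. Of 20 ribosome assembly genes, 12 were higher and 0 lower, with a median of 0.73, and their summed intensity was 13297 to 15780 in CD117neg and 19944 to 23264 in CD117pos arrays. Of 19 mitosis genes, 9 were higher and 0 lower, with sums of 14158 to 24641 and 24864 to 37170. Without mouse _951, 18 mitosis and 17 ribosome assembly genes were higher. Without mouse _948 these counts were 4 and 5, without mouse _952 they were 5 and 5, and without mouse _953 they were 2 and 7. The mitosis list had a median difference of 0.10 in mouse _951 and of 0.63 to 1.18 in the other mice, where the RNA modification genes had medians of 0.29 and of 0.24 to 0.34. Of 10 mature monocyte and macrophage markers, 8 were lower and 0 higher, with sums of 34613 to 41867 in CD117neg and 2141 to 7825 in CD117pos arrays. Of 8 late neutrophil markers, 7 were lower and 0 higher, with sums of 43900 to 50542 and 9140 to 19961. The CD117pos array of mouse _951 had the lowest sum of both maturation lists on all 8 arrays, and the lowest sum of the mitosis list among the CD117pos arrays. In every mouse the maturation lists had a median below 0 and Kit a difference above 0. Within mouse _951, differences of single mitosis genes ran from -0.64 for Aurka to 1.47 for Ube2c. In this design the parts of maturation, of mitosis and of Kit cannot be told apart.

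Few markers of other cell types differed between the fractions, where 8.36% of all genes tested were higher and 13.8% lower. For T cells, 0 of 8 markers were higher and 1 was lower, and Cd3d, Cd3e, Cd3g, Cd2 and Cd5 lay below the array median on all arrays. Their sum was 128 to 497 in CD117neg and 103 to 190 in CD117pos arrays other than that of mouse _951, which reached 839, of which Themis made up 739. For B cells, 1 of 9 was lower and 0 higher, with sums of 716 to 1154 and 520 to 739, and Pax5, Blk and Ebf1 were below the array median throughout. For NK cells, 1 of 7 was higher and 0 lower, with sums of 82 to 117 and 100 to 151, and Ncr1, Klra8, Gzma, Eomes and Il2rb were below the array median throughout. Of 6 erythroid and 6 megakaryocyte markers, 0 were called in either direction, where limma gave 0 and 1 at an unadjusted p under 0.05, and their sums stayed between 65 and 180 on every array. Of 6 plasma cell markers 1 was lower, with sums of 3278 to 3809 and 2576 to 3226. Xbp1 made up most of these sums, at 3334 ± 180 and 2764 ± 273, and Jchain, Mzb1 and Tnfrsf17 were below the array median throughout. Of 8 stroma and endothelium markers 1 was higher and 1 lower, with sums of 555 to 1890 and 1051 to 2621. Vcam1 made up most of these, at 784 ± 621 and 1716 ± 625, and Cdh5, Col1a1, Col3a1 and Pdgfra were below the array median throughout. The single calls of the B cell, NK cell, plasma cell and stroma lists each ended in at least 3 of the 4 fits without 1 mouse, and 1 megakaryocyte marker was lower without mouse _951. The T cell call, Cd28, held in each of these fits. Cd28 went from 184 ± 152 to 42.0 ± 24.4, with overlapping fractions and a difference of -1.60 ± 0.23 (limma, adjusted p = 0.00775). With neither the CD117pos array of mouse _951 nor the block, 0 T cell markers were lower. The leukaemia genes Hoxa9, Hoxa10, Meis1 and Mef2c, known targets of MLL fusions, had sums of 8889 to 10122 and 7472 to 10679 in the 2 fractions, and 0 of the 4 were called, also at an unadjusted p under 0.05.

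**Figure D4:**
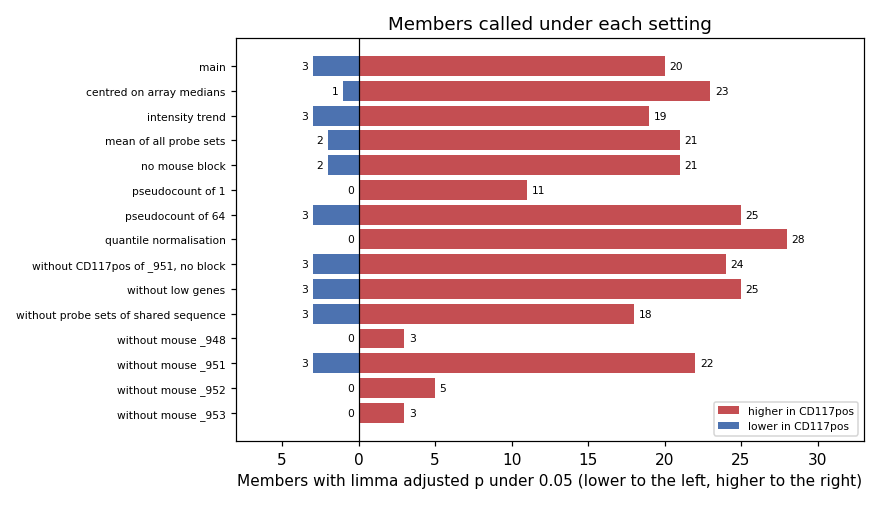
Number of the 58 genes called higher and lower in CD117pos (horizontal axis, counts) under each processing setting and without each mouse (vertical axis). The higher calls number 20 as deposited, 28 after quantile normalisation, 11 with a pseudocount of 1 and 3 to 22 when 1 mouse is left out. The setting labelled shared sequence leaves out probe sets whose names end in _s_at, _x_at or _a_at.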

How the data were processed

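Spleen cells of 4 mice, each sorted into 2 fractions, gave 8 arrays. Per the labels' protocols, polyA RNA went through 2 cycles of amplification and a biotin label was used. The authors deposited linear intensity values for 45101 probe sets. Their summary software and scaling are not given in the sources used. Values of exactly 1, 841 to 898 per array, look like a floor. Depth does not apply to arrays, and their number limits the precision.

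From these values the following was computed. The 64 control probe sets were left out, and probe sets were named where the platform annotation gave 1 symbol (34945; 932 had several and 9160 none), which gave 18193 genes, 18032 of them in the RefSeq gene table, with 0 symbols changed. Each gene kept the probe set with the highest mean of log2(intensity + 16). limma 3.58.1 in R 4.3.3 (lmFit, eBayes, two-sided moderated test) was fitted to all genes with the mouse as a block, and p-values were adjusted by Benjamini-Hochberg with a threshold of 0.05. The script was tested on simulated data. Folds come from the fitted log2 difference. No test was made over lists.

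The pairing comes from the design text, in which each mouse was split into both fractions. Deviations from the fraction means correlated across genes at 0.21, 0.22, 0.27 and 0.12 within mice _948, _951, _952 and _953.

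Named are Kit, all m6A, Nsun and Pus members, every other member past the threshold, up to 3 genes of each partner list with the largest difference past it, and members whose probe sets disagree. Wdr4, Cmtr1, Virma, Cbll1, Themis, Mettl6, Mettl22, Mettl5, Mettl17 and the other Trmt genes were named after their values were seen. So were Rbm15, Zc3h13, Aurka, Ube2c and Cd28. The members and lists were chosen with earlier results of these data known. Alternatives were other pseudocounts, quantile normalisation, centring, other handling of probe sets, a filter on low genes, an intensity trend, no block and leaving out each mouse. Promoters came from RefSeq tables, and figures from matplotlib 3.10.9 in Python 3.11.15.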

Additional observations from a re-analysis of the deposited data

Results flagged for a closer look

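In each fraction of 4 arrays, the highest or the lowest array was checked for a gap to the nearest other array that is large for the fraction's whole range (Dixon's criterion at 95%). Of 116 such groups 13 were picked out, where chance picks out about 1 in 20, and 4 of the 13 were in the CD117pos array of mouse _951.

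In the CD117pos array of mouse _951, Mettl9 read 2723.4 against 1303.0 to 1402.8 in the other CD117pos arrays, and Pus3 read 407.3 against 209.2 to 214.0. In the same array Nsun3 read 121.7 against 249.7 to 282.6, and Nsun5 read 63.5 against 112.9 to 120.8. Among other CD117pos arrays, that of mouse _953 read 536.7 for Mettl16 against 510.3 to 512.1, and that of mouse _952 read 473.7 for Mettl25 against 326.1 to 339.2. That of mouse _948 read 2431.1 for Ythdf1 against 2865.4 to 2909.1, and 1009.6 for Ythdf3 against 1184.4 to 1216.8.

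Among CD117neg arrays, that of mouse _948 read 1310.3 for Ythdf3 against 1634.2 to 1698.2, so that both arrays of this mouse were the lowest of their fraction, and 90.9 for Mettl27 against 62.6 to 65.0. The CD117neg array of mouse _953 read 387.3 for Trmt1 against 329.5 to 337.6, 218.6 for Trmt13 against 179.4 to 184.2, and 15.8 for the dim Mettl11b against 2.1 to 3.3.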

How the results depend on the processing

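Over the 52 named genes and all settings, 722 alternative values were computed, of which 584 kept the direction and the side of the threshold, 115 lost the call, 15 gained one and 8 reversed. Of the 58 RNA modification genes, 20 were higher and 3 lower as deposited. With a pseudocount of 1, 11 were higher and 0 lower (4 lower at an unadjusted p under 0.05 in limma), and over all genes 997 were higher. Quantile normalisation gave 0 lower members and 2341 higher genes, and centring gave 1 lower member. Leaving out 1 mouse gave 3 to 22 higher and 0 to 3 lower members, and 440 to 2130 higher and 1219 to 2985 lower genes; these fits have fewer samples. Without the replicate block, 21 members were higher and 2 lower. Reversed differences were those of Mettl16 (-0.05) and Mettl21a (0.13) in the fit without probe sets whose names end in _s_at, _x_at or _a_at. There another, dimmer probe set stands for the gene, since the chosen ones of both genes end in _a_at. Further ones were Nsun3 (0.05 after centring, 0.08 after quantile normalisation, 0.22 in the fit with neither the CD117pos array of mouse _951 nor the block, and -0.13 to 0.16 when 1 mouse was left out), and after quantile normalisation Wtap (0.07) and Ythdc1 (0.01), for which the cause was not tested. Signal limits the 6 members that lay below the array median on all 8 arrays: Mettl11b, Mettl21e, Mettl24, Mettl4-ps1, Trmt12 and Trmt9b.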
